A study of Mus musculus with 3 samples.

Results

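Zeb1, Zeb2, Snai1, Snai2, Cdh1, Cdh2, Cdh11 and Vim were followed through the cell types of the mouse forelimb bud. These 8 genes encode regulators of the epithelial-mesenchymal transition, cadherins and vimentin. They were listed by symbol, and all 8 were found in the 3 deposited matrices, among 31054 features. Forelimb buds of E9.5 embryos were profiled by single-cell RNA sequencing. Control embryos were Esco2 fl/fl, homozygous for a floxed allele of the cohesin acetyltransferase gene Esco2. Mutant embryos were Esco2 fl/fl;Prrx1-Cre Tg/0, so both genotypes carried the floxed allele and the mutants also carried 1 Cre transgene. The Prrx1 enhancer drives that Cre in limb mesenchyme, and ectoderm and blood vessels are not its target. The study was designed with 3 replicates per genotype, each pooling 3 samples (2 male and 1 female) of 2 limb buds, or 6 buds. Here 1 control library and 2 mutant libraries were analysed. Nothing in the sources used here says whether the mutant pools came from separate litters, so p-values measure only the spread between these libraries.

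Epithelial cells are held together by E-cadherin, the product of Cdh1, while mesenchymal cells carry N-cadherin (Cdh2) or cadherin-11 (Cdh11) and the intermediate filament vimentin. The zinc-finger repressors Snail (Snai1), Slug (Snai2), Zeb1 and Zeb2 bind E-box motifs and are known for repressing Cdh1 when epithelial cells turn into mesenchyme. In the early limb field, lateral plate epithelium gives rise to limb mesenchyme by such a transition, and the surface ectoderm that stays epithelial forms the apical ridge, a source of Fgf8.

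Snai1 lies at chr2:167538195-167542814 on the plus strand of GRCm38 and Zeb2 at chr2:44983632-45117395 on the minus strand. A RefSeq promoter window was found for 3 of the 8 genes, Vim, Zeb2 and Snai1 (GRCm38.p6). The E-box to which Snail and Zeb proteins bind was searched as CACCTG or CAGGTG, which are the same site read on either strand. Of 32851 promoters, 5657 (17.2%) hold it in the 250 bases before the start. Snai1 holds 1 such site, beginning 126 bases before its start (chr2:167537945-167538194, plus strand). The most upstream Zeb2 start (chr2:45117443-45117692, minus strand) has none in its window. These windows are shown because Zeb2 is the gene whose mutant effect differed between tissues, and Snai1 is the regulator with a motif of its own family, marked in capitals.
Snai1: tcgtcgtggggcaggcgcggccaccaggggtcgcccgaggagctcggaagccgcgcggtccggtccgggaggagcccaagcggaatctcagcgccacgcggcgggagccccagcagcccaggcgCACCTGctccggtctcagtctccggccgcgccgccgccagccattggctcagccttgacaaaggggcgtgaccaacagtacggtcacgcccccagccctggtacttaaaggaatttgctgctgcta
Zeb2: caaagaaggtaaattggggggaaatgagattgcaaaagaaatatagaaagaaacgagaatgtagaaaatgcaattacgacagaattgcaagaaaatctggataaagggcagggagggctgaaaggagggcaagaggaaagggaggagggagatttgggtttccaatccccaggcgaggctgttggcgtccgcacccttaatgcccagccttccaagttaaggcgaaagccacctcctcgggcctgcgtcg
A match is a string of letters, and no binding was measured in these libraries.

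The deposited matrices held 6527, 7219 and 8755 barcodes with 178159788 to 225032823 unique molecular identifiers (UMIs), of which 4048, 3590 and 4684 were kept as cells for control 1, mutant 1 and mutant 2. Cells were clustered without the 8 genes and Prrx1 and named from marker genes. Mesenchyme-like cells numbered 1135, 1216 and 2197 in these libraries, ectoderm-like cells 329, 439 and 304, endothelium-like cells 469, 384 and 423, and primitive erythroid-like cells 442, 614 and 480. The samples are labelled as mesenchymal limb buds, but the libraries thus held other tissues as well. Libraries shared 65 to 117 barcodes before filtering and 18 to 19 after it. Levels are given in CPM, the UMIs of a gene per 1e6 UMIs of the class. In mesenchyme, Esco2 stood at 31.65, 23.58 and 21.64 CPM in control 1, mutant 1 and mutant 2. Its log2 fold was −0.55 (SE 0.27, edgeR adjusted p = 0.951), and whether these 3′ tags lie in the deleted part was not tested. The CRE feature had 0 UMIs in control mesenchyme, which allows up to 0.0531 CPM, and 1.15 and 1.22 CPM in the mutants. Cdkn1a, a p53 target that arrests the cell cycle, was at 1.58, 70.28 and 69.96 CPM.

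The 8 genes did not share a single order of cell classes, and each gene's order was similar in the 3 libraries. Snai1 and Cdh2 did have the same order, from mesenchyme over endothelium and ectoderm to erythroid cells, in every library. Levels are given for control 1, mutant 1 and mutant 2, and orders are over the 4 large classes unless another class is named. Of the 4, ectoderm was highest in E-cadherin: Cdh1 stood at 114.3, 109.3 and 139.3 CPM there and at 0.37, 0.46 and 0.37 CPM in mesenchyme. In endothelium Cdh1 was at 0.15, 0.25 and 0.53 CPM, so that mesenchyme and endothelium overlapped at the bottom of its order. Vim was highest in endothelium, at 1927, 1884 and 1926 CPM, followed by mesenchyme at 87.98, 77.98 and 90.55 CPM and ectoderm at 17.64, 29.79 and 33.44 CPM. Erythroid cells were lowest for Vim, at 2.65, 2.66 and 2.92 CPM, and no 2 of these 4 classes overlapped.

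The Snail family split among the 4 large classes. Among the 4 large classes Snai1 was highest in mesenchyme, at 57.09, 39.59 and 59.79 CPM, then in endothelium, at 22.15, 15.13 and 19.49 CPM, and in ectoderm it was at 1.63, 2.24 and 3.29 CPM. Snai2 was instead highest of the 4 in ectoderm, at 30.96, 33.28 and 28.88 CPM, above mesenchyme at 21.08, 16.44 and 18.49 CPM in every library. The myogenic progenitor-like cells lay between mesenchyme and endothelium for Snai1 in control 1 and mutant 2, at 35.22 and 42.24 CPM, and level with mesenchyme in mutant 1, at 40.14 CPM. The 21, 4 and 114 coelomic epithelium-like cells had 23.66, 69.92 and 17.20 CPM of Snai2, above ectoderm in mutant 1 only. Ectoderm, which of the 4 classes held most Cdh1, thus gave Snai2 a larger share of its UMIs than mesenchyme did. That order is of whole classes and did not hold for every cluster in them. Mesenchyme cluster 3 had 31.33, 24.2 and 26.07 CPM of Snai2, and the ectoderm cluster lowest in Fgf8 had 22.2, 22.2 and 14.75 CPM. Some clusters left without a class name lay above ectoderm for Snai2. Cluster 11 (156, 150 and 94 cells) had 44.95, 43.3 and 37.6 CPM, and cluster 19 (126 cells over all libraries) had 130.6 CPM. Cdh1 was at 0.12 and 0.16 CPM in these 2 clusters over all libraries. Endothelium had 4.84, 5.53 and 7.66 CPM of Snai2, and erythroid cells under 1 CPM of both Snail genes.

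Zeb1 was at 391.1, 450.5 and 336.1 CPM in mesenchyme and at 390.3, 412.0 and 449.9 CPM in endothelium, and these ranges overlapped. It was lower in erythroid cells, at 46.74, 49.14 and 42.39 CPM, and lowest in ectoderm, at 3.32, 7.23 and 13.05 CPM. Zeb2 had another order: endothelium (112.0, 134.3 and 130.9 CPM) and erythroid cells (113.1, 111.1 and 102.5 CPM) overlapped at the top of the 4 large classes. Mesenchyme followed for Zeb2 at 51.25, 58.94 and 30.63 CPM, with ectoderm last at 5.17, 21.44 and 13.17 CPM. The 20 to 57 macrophage-like cells per library were higher still in Zeb2, at 540.1, 721.2 and 684.4 CPM.

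Cdh2 was at 266.4, 324.3 and 183.2 CPM in mesenchyme and at 262.2, 236.1 and 199.4 CPM in the 47 to 443 myogenic progenitor-like cells, ranges that overlapped. Endothelium was below both in every library, at 157.7, 168.2 and 139.1 CPM of Cdh2. Ectoderm carried 59.10, 111.4 and 128.6 CPM of Cdh2, against 1.35, 1.60 and 2.00 CPM in erythroid cells. Cdh11 was highest in 2 mesodermal classes: mesenchyme had 161.3, 273.6 and 268.2 CPM, and the myogenic progenitor-like cells had 441.6, 406.3 and 384.3 CPM. In ectoderm Cdh11 was at 3.54, 5.39 and 10.77 CPM and in endothelium at 2.54, 2.04 and 4.44 CPM. These comparisons between classes are descriptions, without a test.

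**Figure D1:**
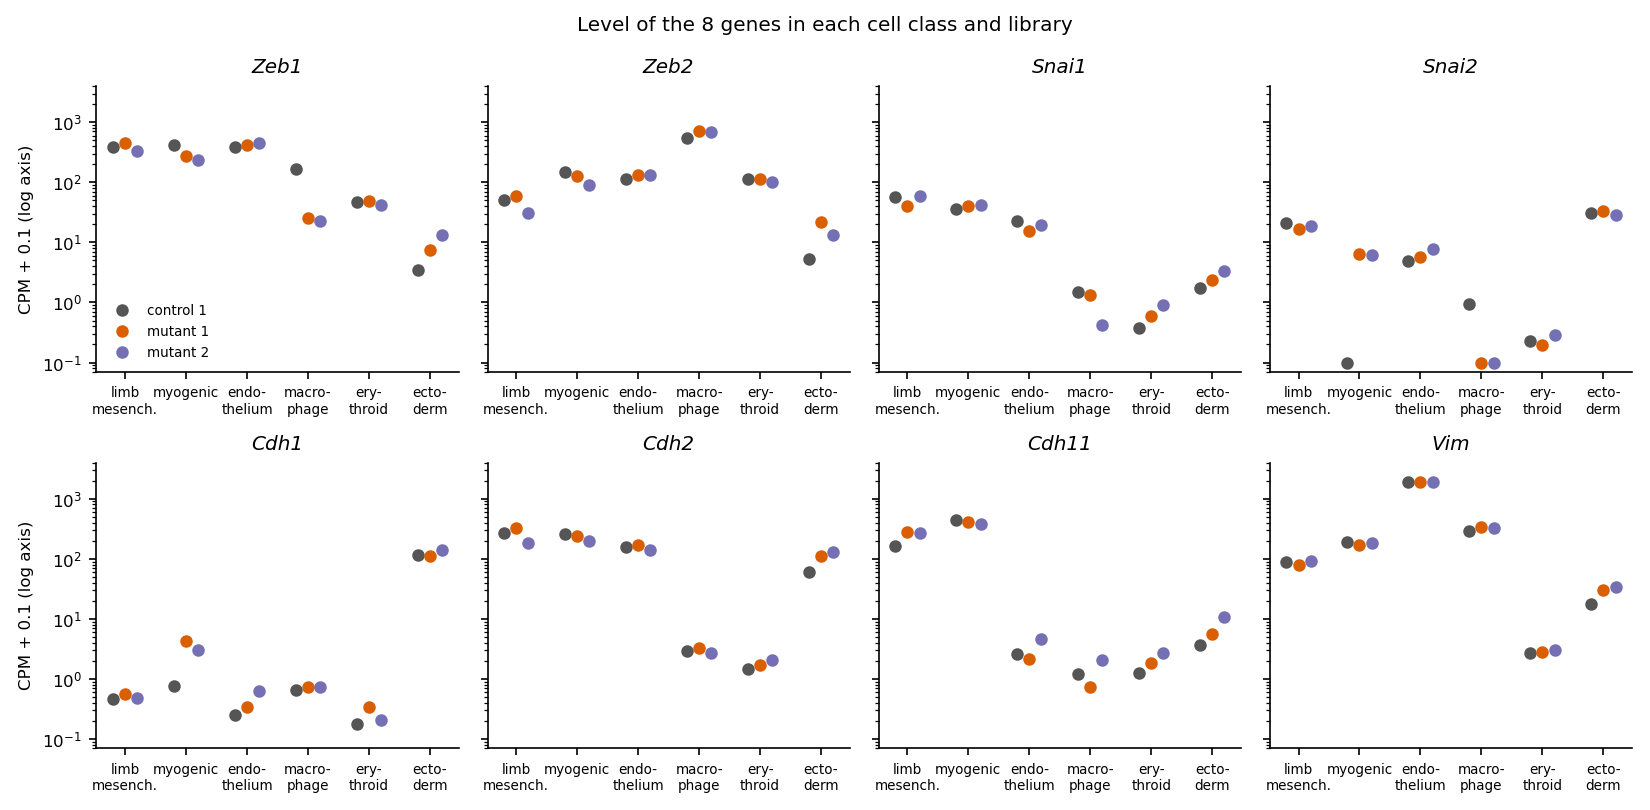
Level of the 8 genes in 6 cell classes, in CPM plus 0.1 on a log axis; each point is 1 library (control 1, mutant 1, mutant 2). Of these 6 classes Cdh1 and Snai2 are highest in ectoderm, Vim in endothelium and Zeb2 in macrophages, and in ectoderm the control point lies below both mutant points for Zeb1, Zeb2, Snai1, Cdh2, Cdh11 and Vim.

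The same was seen cell by cell after cells were thinned to 5000 UMIs, which removes differences in depth. Cells with fewer UMIs were left out, so that 1002 of 1135, 1147 of 1216 and 2108 of 2197 mesenchyme cells entered. Cdh1 was detected in 42.3%, 44.4% and 48.8% of ectoderm cells (298, 414 and 281 cells, median depths 49998, 30552 and 24083 UMIs before thinning). Without thinning, over all 329, 439 and 304 ectoderm cells, these shares were 84.5%, 85.0% and 83.6%. Free RNA was gauged in erythroid cells, whose median depths were 94674, 65604 and 59362 UMIs: there Cdh1 was found in 0%, 0.166% and 0% of cells. Zeb1 was detected in 54.3%, 77.2% and 69.9% of mesenchyme cells and in 2.35%, 5.31% and 5.34% of ectoderm cells. Prrx1, a homeobox gene of limb mesenchyme, was detected in 2.35%, 5.31% and 4.98% of the same ectoderm cells, nearly the same shares as Zeb1, against 1.69%, 3.31% and 1.72% of erythroid cells. Cdh2 was found in 18.5%, 25.6% and 31.3% of ectoderm cells, above the 1.69%, 0.993% and 1.51% in erythroid cells. Cdh1 and Cdh2 were detected together in 31 of 298 control ectoderm cells (10.4%), 43 of 414 (10.4%) in mutant 1 and 52 of 281 (18.5%) in mutant 2.

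In mesenchyme, where the Cre acts, none of the 8 genes passed the test between mutant and control. UMIs were summed per library and class and compared by edgeR's quasi-likelihood test, with p-values adjusted over all genes of the class by Benjamini and Hochberg and called under 0.05. Of 10134 genes tested, 127 (1.25%) were called, and 0 of the 7 of these genes with at least 5 CPM were among them (DESeq2 also called none of the 7). None of the 7 had an unadjusted p under 0.05 either, against 487 of all genes. The lone control is assumed to vary as the mutants do, with 1 residual degree of freedom, and an exact permutation of 1 against 2 libraries cannot give a p below 0.333. In simulated mesenchyme libraries, in which all genes had the same spread, 28% of changes of 1 log2 unit and 100% of 2 units were called. Most changes of 1 unit or less would thus be missed at this size.

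Cdh11 came closest: its 161.3 CPM in the control lay below the 273.6 and 268.2 CPM of the mutants. The fold was 0.68 on the log2 scale (SE 0.41), with an edgeR adjusted p of 1. It was the 1 gene of 7 with both mutants above the control, a position that 26.9% of all genes tested held. The control was also lowest within each of the 5 mesenchyme clusters that hold control cells. In the cluster numbered 2, for instance, Cdh11 was at 156.0, 236.8 and 279.6 CPM, and in cluster 4 at 415.6, 548.2 and 611.9 CPM.

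Snai2 was the 1 gene of 7 with both mutants below the control (26.6% of all genes), with a log2 fold of −0.33 (SE 0.28). For the others the control lay between the mutants. Log2 folds were −0.28 (SE 0.31) for Zeb2, −0.26 (SE 0.32) for Snai1, −0.15 (SE 0.40) for Cdh2, −0.12 (SE 0.35) for Vim and −0.07 (SE 0.42) for Zeb1. The mutants differed from each other by more than these folds: Cdh2 was 0.17 above the control in mutant 1 and 0.56 below it in mutant 2 on the log2 scale. Cdh1 was under 5 CPM in mesenchyme and was not tested.

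The genes tested varied more between clusters of mesenchyme than between the 3 libraries. In control mesenchyme Zeb1 ran from 36.42 CPM in cluster 7 to 1006 CPM in cluster 4, a 27.6-fold range, and Cdh2 from 22.32 CPM in cluster 7 to 1007 CPM in cluster 12, a 45.1-fold range. Cdh11 (27.0-fold) and Zeb2 (29.4-fold) had ranges of the same size. Snai1, Snai2 and Vim varied 4.40-, 3.50- and 3.95-fold among the same clusters. The genes with wide ranges span 134 to 220 kb of genome (GENCODE vM21), and Snai1, Snai2 and Vim span 4.62, 3.53 and 8.90 kb. Clusters 4 and 12 had median mitochondrial shares over 4% of UMIs in every library and cluster 7 under 1%. Cluster 7 made up 44.1% of control mesenchyme cells, against 6.83% and 10.2% in the mutants, and 13.6%, 1.92% and 2.72% of the UMIs summed. A cluster led by Ano3 and Cdkn1a held 0, 139 and 194 cells. With every cell given equal weight in place of the sum of UMIs, which has no test, the log2 differences of Zeb1, Zeb2 and Cdh2 turned to 0.37, 0.14 and 0.26, and that of Cdh11 was 1.08. The part of these shifts in the folds was not tested beyond the subsets of clusters given under the processing alternatives.

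**Figure D2:**
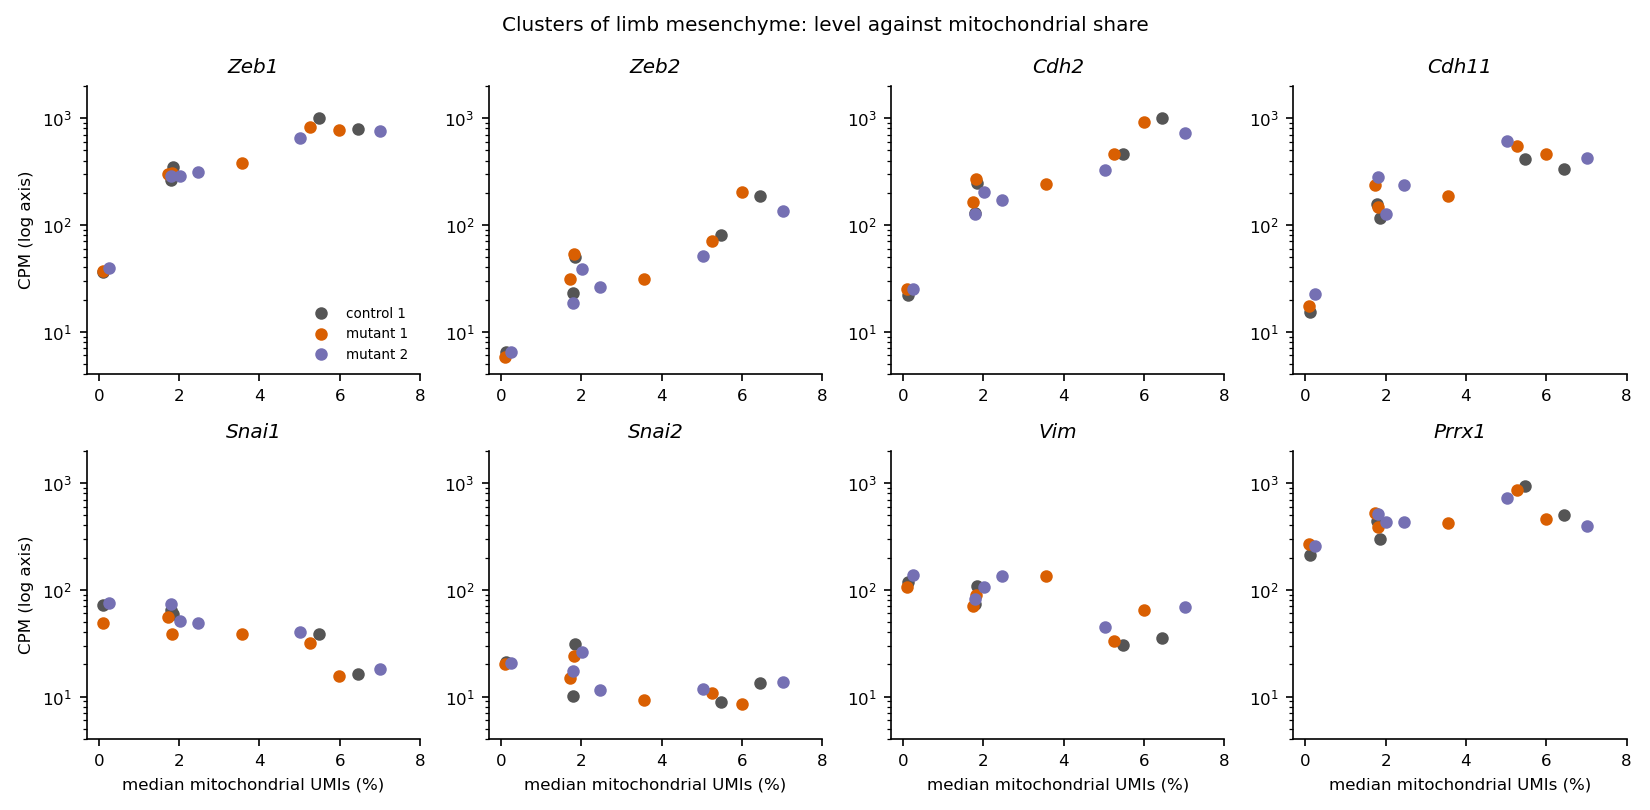
Level in CPM (log axis) against the median percent of mitochondrial UMIs; each point is 1 mesenchyme cluster in 1 library. Zeb1, Zeb2, Cdh2 and Cdh11 are lowest in the cluster under 1% and highest in those over 4%, while Snai1, Snai2 and Vim run the other way or level.

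In ectoderm, which the Cre does not target and where the CRE feature had 0, 0 and 1 UMI, 5 of 7 tested genes had both mutant libraries above the control, a position that 36.7% of 10643 genes held. The 5 were Zeb1, Zeb2, Cdh2, Cdh11 and Vim. Zeb1 and Cdh11 were under 5 CPM in control ectoderm, at 3.32 and 3.54 CPM. They passed the filter, a mean of at least 5 CPM over the libraries, only through the mutants. For these genes a position above the control is thus partly set by the filter. edgeR called 0 of the 10643 genes (0%), and so 0 of the 7, although 1183 had an unadjusted p under 0.05, among them 4 of the 7. DESeq2 called 39 genes, gave 5 of the 7 an adjusted p and called none of them. The share of UMIs from genes spanning over 100 kb, which Zeb1, Zeb2, Cdh2 and Cdh11 do, was 15.2%, 18.1% and 19.3% in ectoderm, and the nuclear RNA Malat1 was at 5646, 8293 and 7841 CPM. Both were above the control in both mutants, and their part in the result was not tested. No gene of the 7 had both mutants below the control (38% of all genes). In bulk sums of a class, a change in RNA per cell and a change in which cells make up the class cannot be told apart.

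Zeb2 was at 5.17 CPM in control ectoderm (92 UMIs, 95% Poisson interval 4.17 to 6.34), 21.44 CPM in mutant 1 (326 UMIs, 19.18 to 23.9) and 13.17 CPM in mutant 2 (104 UMIs, 10.76 to 15.96). Both mutants lay above the control and their intervals, which cover counting error only, did not meet it. The log2 fold was 1.65 (SE 0.39, unadjusted p = 0.00999, edgeR adjusted p = 0.437).

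Cdh2 had the lowest unadjusted p of the 8 genes: 59.10 CPM in the control against 111.4 and 128.6 CPM gave a log2 fold of 0.93 (SE 0.16, unadjusted p = 0.00265, edgeR adjusted p = 0.437). With DESeq2 its adjusted p was 0.0544. Vim, at 17.64 CPM in the control, was at 29.79 and 33.44 CPM in the mutants, a log2 fold of 0.74 (SE 0.18). Zeb1 had a log2 fold of 1.46 (SE 0.45) and Cdh11 of 1.03 (SE 0.49). All of these missed the adjusted threshold. A cluster of ectoderm cells mixed with mesenchyme markers, with 194, 6 and 2 cells, was left out of the class. With it counted in, an alternative added after the data were seen, the log2 fold of Zeb1 was 0.0041, that of Cdh11 0.51 and that of Zeb2 1.25.

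The 2 genes highest in ectoderm lay close to the control in the mutants. Cdh1 had a log2 fold of 0.03 (SE 0.18, edgeR adjusted p = 0.961) and Snai2 of −0.08 (SE 0.18, edgeR adjusted p = 0.879). For both, 1 mutant was above and 1 below the control. Snai1, under 5 CPM in ectoderm, was not tested.

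**Figure D3:**
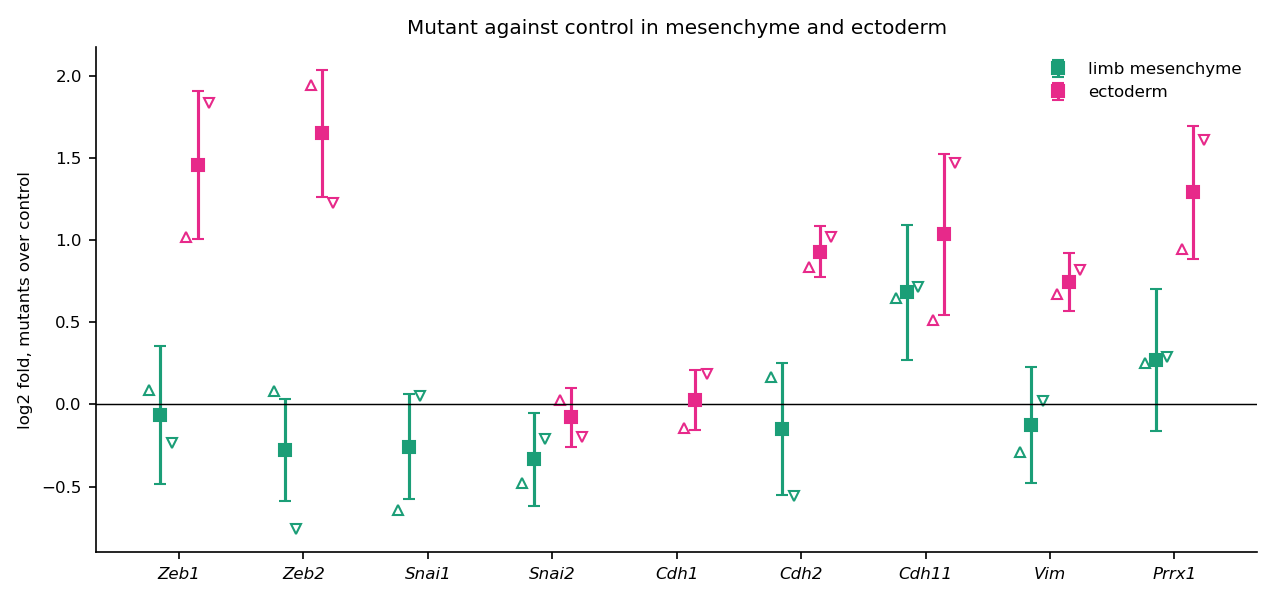
Log2 fold of mutants over control from edgeR in mesenchyme and ectoderm: squares are the fit with its SE, triangles pointing up are mutant 1 alone and pointing down mutant 2 alone. In ectoderm Zeb1, Zeb2, Cdh2, Cdh11, Vim and the mesenchyme gene Prrx1 lie above 0 in both mutants, and none of these passed the adjusted threshold.

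Prrx1 is a mesenchyme gene, so its UMIs in ectoderm gauge how much mesenchyme RNA the ectoderm sums hold. Prrx1 stood at 2.81, 5.85 and 9.499 CPM in ectoderm, or 0.692%, 1.12% and 1.89% of its level in the mesenchyme of the same library. Its own log2 fold in ectoderm was 1.29 (SE 0.40, edgeR adjusted p = 0.437). Twist1, another mesenchyme regulator, was at 2.53, 6.58 and 6.59 CPM, a log2 fold of 1.25. Prrx1 and Twist1, too, were under 5 CPM in the control and passed the filter only through the mutants. The 9 mesenchyme markers summed to 54.33, 85.69 and 74.35 CPM in ectoderm, all 9 were detected in each library, and 2, 3 and 3 of them were over 5 CPM.

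If mesenchyme RNA were present at the Prrx1 ratio, it would give 81.6%, 69.6% and 48.8% of the Zeb1 level measured in ectoderm. Scaled by Tbx5, the forelimb T-box gene, the same share of Zeb1 was 106%, 111% and 54.6%. In control 1 and mutant 1, mesenchyme RNA at the Tbx5 ratio would thus give the whole Zeb1 level. For Cdh11 the share at the Prrx1 ratio was 31.5%, 56.7% and 47.2%, and for Snai1 24.3%, 19.8% and 34.4%.

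The other genes stood far above that line. Mesenchyme RNA at the Prrx1 ratio would give 6.86%, 3.07% and 4.40% of Zeb2 and 3.12%, 3.25% and 2.70% of Cdh2 in ectoderm. For Vim it would give 3.45%, 2.92% and 5.13%, and for Snai2 0.471%, 0.552% and 1.21%. With that share taken off, the log2 difference of mutants from control, which has no test, was 1.75 for Zeb2, 1.02 for Cdh2 and 0.83 for Vim. For Zeb1 it was 2.66, from remainders of 0.608, 2.20 and 6.69 CPM. For Cdh11 the direction turned with the gene used for scaling. At the Prrx1 ratio 2.42, 2.34 and 5.69 CPM of Cdh11 were left, a difference of 0.59 with mutant 1 not above the control. At the Tbx5 ratio, which gives 40.8%, 90.4% and 52.8% of the Cdh11 level, 2.09, 0.518 and 5.08 CPM were left, a difference of −0.37. Counting error of the few Prrx1 and Tbx5 UMIs in ectoderm was not carried into these differences.

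RNA of endothelium, erythroid cells and macrophages was gauged in a like way, by the median ratio of each class's markers in ectoderm. Endothelial RNA would give 4.62, 4.77 and 5.62 CPM of Vim and 0.269, 0.340 and 0.382 CPM of Zeb2. Erythroid RNA would give 0.148, 0.162 and 0.153 CPM of Zeb2, and macrophage RNA 0.0901, 0.228 and 0.202 CPM. At the median ratios these lie below the Zeb2 levels of 5.17, 21.44 and 13.17 CPM. Single markers varied widely: macrophage ratios had medians of 0.0167%, 0.0316% and 0.0295% and ran from 0% up to 1.67%, 0.737% and 1.49%. The highest endothelial ratios were 3.3%, 3.27% and 2.65%, next to medians of 0.24%, 0.253% and 0.292%. The values at the median are thus not upper limits. RNA of the myogenic progenitor-like cells (47, 190 and 443 cells) was not gauged. Their cluster 8 had 106.1 CPM of Zeb2, 217.3 of Cdh2 and 401.0 of Cdh11 over all libraries, with 27.48 CPM of Prrx1. Myogenic markers summed to 155.8, 200.5 and 174.7 CPM in ectoderm, and the part of such RNA in the result was not tested. Neural crest markers, summing to 59.33, 89.05 and 116.9 CPM in ectoderm, moved in the same direction as Zeb2 and Cdh2, and their part in the result was not tested.

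**Figure D4:**
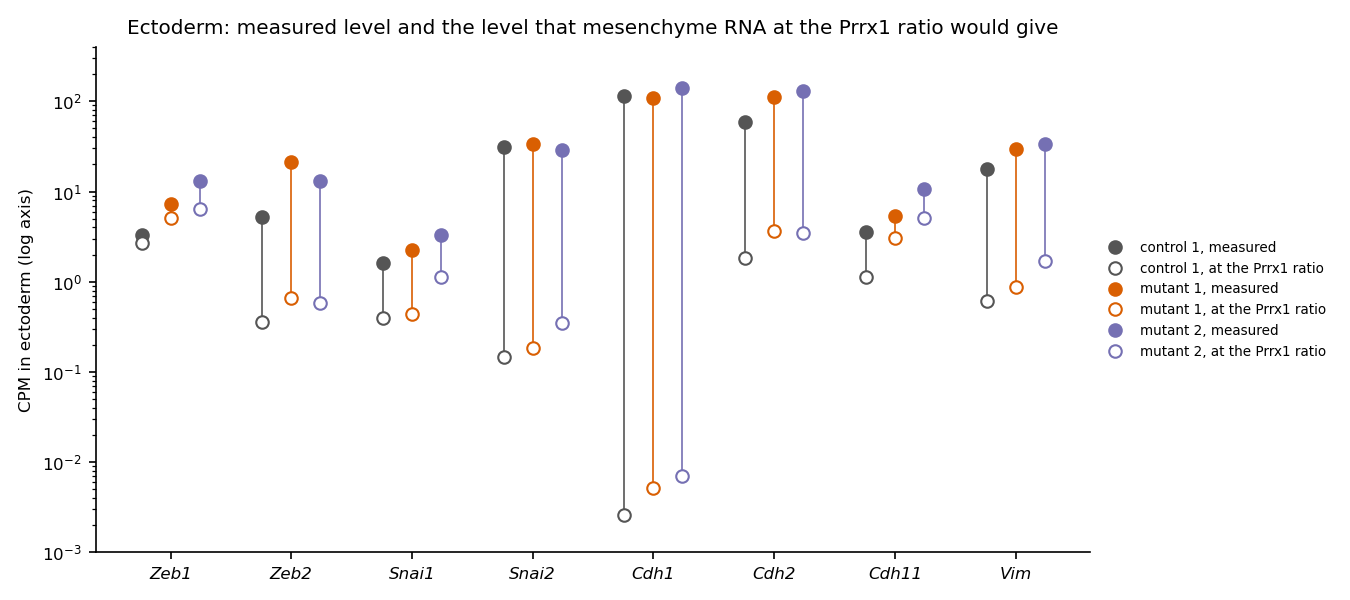
Measured level in ectoderm (filled points) and the level that mesenchyme RNA at the Prrx1 ratio would give (open points), in CPM on a log axis, for each library. The points lie close for Zeb1 and Cdh11 and far apart for Cdh1, Snai2, Cdh2, Vim and Zeb2.

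Zeb2 was the 1 gene of the 8 to pass the test of a mutant effect that differs between ectoderm and mesenchyme. The difference of the log2 folds, tested in 1 fit over both classes with a term for each library, was 1.97 (SE 0.33, edgeR adjusted p = 8.65e-07), and 146 of 10623 genes (1.37%) were called. Zeb2 was above the control in ectoderm in both mutants, and in mesenchyme 0.08 above it in mutant 1 and 0.76 below it in mutant 2. Mesenchyme cluster 12, where Zeb2 was at 187.9, 201.6 and 135.5 CPM, supplied 7.25%, 6.97% and 1.65% of the mesenchyme UMIs. The part of that cluster in the Zeb2 difference was not tested. The same difference was 1.55 (SE 0.50) for Zeb1, 1.15 (SE 0.42) for Cdh2 and 0.91 (SE 0.33) for Vim, with edgeR adjusted p of 0.0986, 0.249 and 0.249. For Prrx1 it was 1.06 (SE 0.52, edgeR adjusted p = 0.903). Of the 8 tested alternatives, 3 called the difference for Cdh2, 2 for Vim and 1 for Zeb1.

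The Zeb2 call held in 7 of the 8 tested alternatives, with differences of 1.56 to 2.32 and adjusted p from 2.17e-10 to 1. It was lost when the fit borrowed the spread with the 3.51 prior degrees of freedom of the ectoderm fit in place of an infinite number: adjusted p was then 1, and 0 genes were called by edgeR, with 227 at an unadjusted p under 0.05 (33 called by DESeq2).

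Within ectoderm, Zeb2 in the mutants lay above the control in the cells that express most Fgf8. Clustering at a finer resolution divided the 1072 ectoderm cells into 4 clusters, of which 3 held at least 50 cells in each library. They are named here Fgf8-rich, deep (the highest median depth in every library) and Fgf8-poor (the lowest Fgf8 level in every library). In the Fgf8-rich cluster (53, 109 and 85 cells), Zeb2 stood at 5.78, 47.98 and 38.77 CPM, from 11, 174 and 70 UMIs. These came from 5, 33 and 24 cells, and the 5 cells with most held 100%, 50% and 55.7% of them. The log2 fold was 2.78 (SE 0.43, edgeR adjusted p = 4.66e-05), among 57 of 10712 genes called (0.532%). This subset was chosen after the data were seen, and with the prior degrees of freedom of the whole ectoderm fit the adjusted p was 0.895 and 0 genes were called.

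Mesenchyme RNA at the Prrx1 ratio would give 0.465, 0.807 and 0.846 CPM of Zeb2 in the Fgf8-rich cells. Macrophage markers summed to 2.63, 3.59 and 3.88 CPM there and neural crest markers to 39.43, 49.91 and 39.88 CPM, while mesenchyme markers summed to 38.9, 86.04 and 158.4 CPM. Median depth was 34437, 24430 and 17393 UMIs and the median mitochondrial share 5.23%, 3.66% and 4.61%. Fgf8 itself was at 703.9, 1167 and 1716 CPM. The part of these in the Zeb2 values was not tested.

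In the Fgf8-poor cluster (87, 159 and 112 cells) Fgf8 was at 164.2, 14.07 and 18.03 CPM and the median mitochondrial share, at 4.40%, 3.88% and 4.52%, was close to that of the Fgf8-rich cells. There Zeb2 lay the other way, at 14.88, 10.99 and 7.21 CPM, a log2 fold of −0.67 (SE 0.35, edgeR adjusted p = 0.874). These levels came from 57, 50 and 22 UMIs in 12, 23 and 14 cells. The 5 cells with most held 77.2%, 50% and 54.5% of them, and 1 control cell alone held 24 UMIs. The part of these few cells in the fold and in the difference between clusters was not tested. In the deep cluster (141, 148 and 80 cells) Zeb2 was at 1.99, 14.87 and 4.16 CPM, a log2 fold of 2.17 (SE 0.76, edgeR adjusted p = 0.923). Only mutant 1 was over 5 CPM there, so Zeb2 passed the filter through that library. edgeR called 0 of 10862 and 0 of 10372 genes in these clusters (550 and 504 at an unadjusted p under 0.05; DESeq2 was not run on them). The Zeb2 effects of the Fgf8-rich and the Fgf8-poor cluster differed by 3.48 (SE 0.50, edgeR adjusted p = 3.34e-06), a test that called 89 of 10847 genes (0.821%). That call too was lost with the prior degrees of freedom of the ectoderm fit, with an adjusted p of 0.914.

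Cdh2 was highest in the same Fgf8-rich cells, at 273.9, 305.0 and 393.8 CPM, next to 23.37, 52.91 and 52.35 CPM in the deep cluster and 67.63, 48.80 and 49.18 CPM in the Fgf8-poor one. The Fgf8-rich cluster supplied 10.7%, 23.8% and 22.9% of the UMIs in the ectoderm sums. Within it the log2 fold of Cdh2 was 0.38 (SE 0.28, edgeR adjusted p = 0.699), below the 0.93 of all ectoderm, a difference that was not tested. In the deep cluster the log2 fold of Cdh2 was 1.12 (SE 0.21) and in the Fgf8-poor cluster −0.48 (SE 0.17), with edgeR adjusted p of 0.923 and 0.874. Cdh1 was at 183.5, 130.2 and 167.3 CPM in the Fgf8-rich cells and Snai2 at 29.96, 43.57 and 29.36 CPM, with no adjusted p under 0.05.

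**Figure D5:**
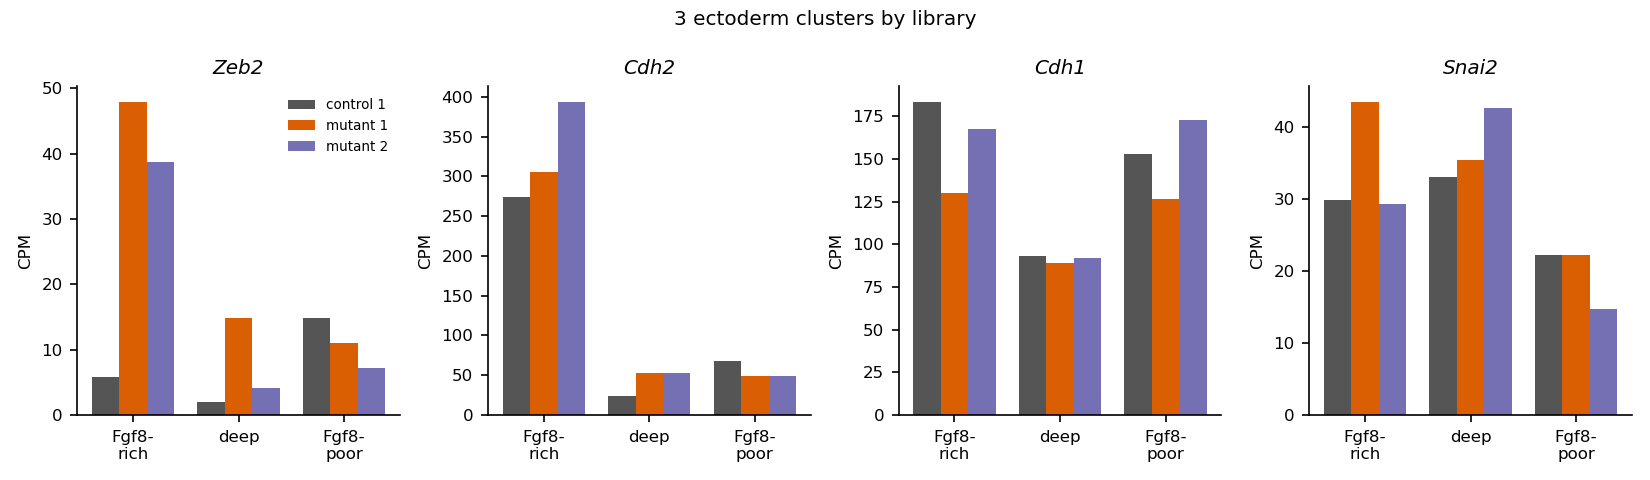
Level in CPM (bars, 1 per library, from 0) of Zeb2, Cdh2, Cdh1 and Snai2 in 3 ectoderm clusters. Zeb2 in the Fgf8-rich cluster stands at 5.78 CPM in control 1 against 47.98 and 38.77 CPM in the mutants, and Cdh2 is highest in that cluster in every library.

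In endothelium, which the Cre also does not target, none of the 6 genes tested passed the threshold. Zeb1 had a log2 fold of 0.11, Zeb2 of 0.21, Snai2 of 0.40, Cdh2 of −0.07, Vim of −0.05 and Snai1 of −0.39, with edgeR adjusted p from 0.702 to 0.927. Both mutants were above the control for 3 of the 6 (35.3% of all genes) and below it for 2 (35.1%). edgeR called 0 of 9761 genes (669 at an unadjusted p under 0.05; DESeq2 called 46). In erythroid cells Zeb1 (log2 fold 0.09) and Zeb2 (0.03) were tested, both with an edgeR adjusted p of 0.998 and both mutants above the control (29.3% of all genes). There edgeR called 0 of 7250 genes (182 unadjusted; DESeq2 called 22).

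Other genes of the pathway were taken from 5 lists. In mesenchyme, 14 of 19 other transition regulators were tested and 0 were called, with Tgfbr2, a TGF-beta receptor, at a log2 fold of 0.88 (edgeR adjusted p = 0.211) and Sox9 at 0.82 (edgeR adjusted p = 0.235). Among 14 guardians of the epithelial state only the desmosomal gene Dsp reached 5 CPM in mesenchyme, and it was not called. Of 15 other cadherins, 8 were tested and 1 rose (0.858% of all genes rose): the protocadherin Pcdh19, at 7.91 CPM in the control and 19.45 and 19.87 CPM in the mutants, differed by 1.25 on the log2 scale (SE 0.31, edgeR adjusted p = 0.00725). The Pcdh19 call was lost when the fit used the 3.51 prior degrees of freedom of the ectoderm fit in place of an infinite number. No mesenchyme gene was called then. None of 10 tested catenins and junction partners or 13 tested genes of cytoskeleton and matrix was called by edgeR. In that last list the actin-binding gene Tagln was at −1.04 on the log2 scale, with an edgeR adjusted p of 0.0731. The lists' median log2 folds in mesenchyme were 0.07 for regulators, 0.27 for cadherins, −0.01 for catenins and 0.02 for cytoskeleton and matrix.

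In ectoderm 13 regulators, 11 guardians, 9 cadherins, 11 catenins and junction partners and 10 genes of cytoskeleton and matrix were tested, and edgeR called none. Among the other cadherins, Cdh6 was at 10.56, 24.93 and 45.34 CPM (log2 fold 1.62) and Cdh13 at 18.93, 38.14 and 51.93 CPM (log2 fold 1.15), both with an edgeR adjusted p of 0.437. Rab25, an epithelial trafficking GTPase, had a log2 fold of −0.52 and Grhl3, a grainyhead factor of epithelia, of 0.79. The median over the tested guardians was 0.03.

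Genes whose levels followed the 8 across the 12 sums of 4 classes were ranked by Pearson's r among 6694 genes, without a p, since the sums share libraries and the 4 classes set most of the spread. Cdh1 was most like Cldn6, a claudin of tight junctions (r = 0.999), with Sfn and Fgf8 at 0.998. Cdh11 was most like Gpc5 (0.995), Prrx1 (0.993) and Hpse2 (0.992). For Zeb1 the nearest were Agtpbp1 (0.974), Pam16 (0.962) and Fam212a (0.955), and for Zeb2 Stat5b (0.973), Cox20 (0.945) and Hspa12b (0.942). Snai1 was nearest to Mecom (0.988), Cped1 (0.987) and Adprh (0.979), Snai2 to Efna4 (0.996), Med23 and Sox12 (0.995 each). Cdh2 was nearest to Klhl22 and Rnf165 (0.996 each) and Prrg1 (0.995), and Vim to Arhgap31 (0.996), Nek6 (0.992) and Fam102b (0.991).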

How the data were processed

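The deposited values are whole-number UMI counts per gene and barcode from Chromium 3′ version 3 libraries, which the authors made with Cell Ranger 7.0.0, per the file headers. The build mm10 and Seurat 4.0.0 are named in the submitters' processing notes. No source used here gives how cells were called or whether intronic reads were counted. The members and lists were chosen with earlier results of these data known. Cells with at least 500 genes and under 10% mitochondrial UMIs were kept and Scrublet doublets removed (41, 96 and 122), leaving 12322 cells. Scanpy 1.11.5 clustered them into 23 Leiden clusters (resolution 1.0, 2000 variable genes, 30 components), without the 8 genes and Prrx1. Clusters were named from 13 marker lists, with limits set after seeing the clusters: at least 3 raised markers, and mixed or shallow clusters were left unnamed, among them 1 with ectoderm and mesenchyme markers (194, 6 and 2 cells). Each class of 50 or more cells per library was tested on summed counts with edgeR 4.0.16 (quasi-likelihood, TMM, mean of at least 5 CPM, prior count 2) in R 4.3.3, with DESeq2 1.42.0 as an alternative. Levels in CPM use the UMIs of the class without TMM. The tests were tested on simulated data in which all genes had the same spread: in ectoderm 55% of changes of 1 log2 unit were called. In the real ectoderm sums 171 of 10643 genes had a log2 fold of at least 1 in either direction. Of these edgeR called 0, so the simulated share may not hold there. Shares have exact Clopper-Pearson and levels exact Poisson 95% intervals for counting error. The genes named are the 8, Prrx1, Esco2, CRE, called genes of the lists, examples with the largest folds in mesenchyme and the 3 genes most like each of the 8. Cdkn1a, Twist1, Tbx5 and the ectoderm examples were named after their values were seen. No column was left unused.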

Additional observations from a re-analysis of the deposited data

Results flagged for a closer look

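The mutant effect on Zeb2 differed between ectoderm and mesenchyme in a test of the difference itself: the log2 fold in ectoderm minus that in mesenchyme was 1.97 (SE 0.33, edgeR adjusted p = 8.65e-07). Leaving out mutant 1 or mutant 2 gave 1.99 and 1.86, which have no test. The call was lost (adjusted p = 1) with the prior degrees of freedom of the ectoderm fit, and DESeq2 gave an adjusted p of 0.00415.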

How the results depend on the processing

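The labels pair no control library with a mutant library, and that of the control carries no replicate number, so genotypes were compared unpaired. Ectoderm and mesenchyme of the same library were paired by a term for each library in the test of the difference. Zeb2 kept its direction in the ectoderm minus mesenchyme difference under all 8 tested alternatives and its call in 7; the exception was the prior degrees of freedom of the ectoderm fit. None of the 8 genes was called within mesenchyme, endothelium or erythroid cells under any tested alternative, and in ectoderm the 1 call was Zeb2 in the Fgf8-rich cluster alone. The number of genes called in mesenchyme, 127, was 346 with a minimum of 1 CPM, 254 with at least 2000 genes and under 5% mitochondrial UMIs per cell, 39 without clusters of under 5 control cells, 63 with DESeq2, 36 in 1 fit over all classes and 0 with the prior degrees of freedom of the ectoderm fit (214 unadjusted). It was 2 for clusters at 1 to 4% mitochondrial UMIs, 2 for those over 4% and 0 for the cluster under 1% (198 unadjusted). The 0 genes of ectoderm became 57 in the Fgf8-rich cluster and 39 with DESeq2, which gave 46 in endothelium and 22 in erythroid cells. The 146 genes of the difference became 271 with a minimum of 1 CPM, 94 without clusters of under 5 control cells, 33 with DESeq2 and 0 with the ectoderm prior. Fewer cells or genes enter some of these fits; the cause was not tested.

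Log2 folds that changed sign in a tested alternative were all uncalled. In mesenchyme Zeb1 and Cdh2 were at 0.060 and 0.048 with the stricter cell filter, Zeb1 at 0.047 at resolution 0.5, and Snai2 and Vim at 0.31 and 0.014 with a gate on each cell. In clusters over 4% mitochondrial UMIs Snai1, Snai2 and Vim were at 0.21, 0.13 and 0.53, and in the cluster under 1% Zeb1, Cdh2 and Vim at 0.040, 0.15 and 0.021. In ectoderm Snai2 and Cdh1 were at 0.33 and −0.28 in the Fgf8-rich cluster, with either prior, and at 0.18 and −0.077 in the deep one. In the Fgf8-poor cluster Zeb2, Cdh1 and Cdh2 were at −0.67, −0.055 and −0.48. Zeb2 in erythroid cells was at −0.012 with doublets kept. With each cell weighted equally, which has no test, Zeb1, Zeb2 and Cdh2 in mesenchyme were at 0.37, 0.14 and 0.26, Zeb1 and Vim in endothelium at −0.0068 and 0.031, and Zeb1 and Zeb2 in erythroid cells at −0.14 and −0.19. With mesenchyme RNA at the Tbx5 ratio taken off, Cdh11 in ectoderm was at −0.37. For the difference, Cdh1 was at −0.0078 with a minimum of 1 CPM and −0.045 with DESeq2, Cdh11 at −0.17 with the mixed cluster counted in, and Snai2 at −0.39 with the gate. Without mutant 1 or mutant 2 the log2 fold of Cdh11 in mesenchyme was 0.65 to 0.72, and in ectoderm that of Zeb2 was 1.24 to 1.95, of Zeb1 1.02 to 1.84 and of Cdh2 0.84 to 1.03, 1 library against 1 with no test, so no genes could be called. The subsets by mitochondrial share, the ectoderm clusters, the mixed cluster, the ectoderm prior in the difference and the gate, stricter filter and DESeq2 for the difference were chosen after seeing the data.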

Other observations

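In the 57, 20 and 46 macrophage-like cells, too few in 1 library for a test, Zeb1 was at 163.8 CPM in the control. In the mutants it was at 25.58 and 22.91 CPM, while Zeb2 was at 540.1, 721.2 and 684.4 CPM. Median depth of these cells also differed, at 16835, 90965 and 71338 UMIs, and its part in the Zeb1 values was not tested. In the 21, 4 and 114 coelomic epithelium-like cells Cdh1 was at 79.87, 169.8 and 134.4 CPM and Vim at 201.1, 149.8 and 163.1 CPM, so both genes were held by 1 class. In myogenic progenitor-like cells (47, 190 and 443) Snai1 was at 35.22, 40.14 and 42.24 CPM, and Snai2 had 0 UMIs in the control and 6.39 and 6.05 CPM in the mutants. The control cells held 1533219 UMIs of all genes, against 10488768 and 22634383 in the mutants.

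The 2 endothelial clusters also differed in these genes. In the cluster with a median mitochondrial share of 5.57% Zeb1 was at 1023 CPM, Zeb2 at 284.6 CPM and Cdh2 at 520.9 CPM, against 361.7, 110.0 and 126.5 CPM in the cluster at 1.99%. Vim lay the other way, at 1073 against 1983 CPM.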
